A study of Mus musculus with 6 samples.

Results

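The 10 genes described here encode mitogen-activated protein kinase kinase kinases (MAP3K). They are the apoptosis signal-regulating kinases *Map3k5* (ASK1), *Map3k6* (ASK2) and *Map3k15* (ASK3), the MEKK genes *Map3k1*, *Map3k2* and *Map3k3*, and *Map3k7* (TAK1), *Map3k8* (TPL2), *Map3k11* (MLK3) and *Map3k14* (NIK). They were taken by name from the 55421 genes of the count files, and all 10 were among the 13849 genes with enough reads for a test. The family was chosen by the read counts of its genes in these same 6 libraries, compared between the genotypes, with *Map3k15* and *Map3k5* at its centre. Every fold change of the 10 genes given here is therefore a description without a test.

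The study sequenced polyadenylated RNA of splenic monocytes from C57BL/6 mice, with 1 library per mouse. IL-4Rα+/+ (3 mice) and IL-4Rα-/- (3 mice) were compared, to ask how the missing alpha chain of the IL-4 receptor alters monocytes. The IL-4Rα-/- mice lack the receptor chain in all cells and not only in myeloid cells, neither group received an agent, and the labels give neither age nor sex. Monocytes were left untouched while antibodies and magnetic beads removed the other splenocytes, so the libraries are bulk samples in which fewer cells of a type and less RNA per cell cannot be told apart.

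A MAP3K phosphorylates a MAP2K, which phosphorylates a MAP kinase of the JNK, p38 or ERK group. ASK1 is held inactive by thioredoxin and is known for its activation by oxidative and endoplasmic reticulum stress, ASK2 works in a complex with ASK1, and ASK3 is known for its response to osmotic stress. TAK1 and TPL2 act below Toll-like and cytokine receptors in myeloid cells, and NIK drives the noncanonical NF-κB pathway through IKKα, while IL-4Rα itself signals through JAK kinases and STAT6.

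All 3 ASK genes are transcribed from the plus strand. In GRCm38, *Map3k15* (ENSMUSG00000031303.8) spans chrX:159988433-160123351, *Map3k5* (ENSMUSG00000071369.11) spans chr10:19934472-20142753 and *Map3k6* (ENSMUSG00000028862.6) spans chr4:133240818-133252929. The ASK genes resemble each other most in the part that encodes the kinase domain. To show whether the reads of these paralogs can be told apart, exon 16 of each is printed 5′ to 3′ on the plus strand of GRCm38, with the 75 of 120 bases that are the same in all 3 genes in capitals:
Map3k5, chr10:20099506-20099625: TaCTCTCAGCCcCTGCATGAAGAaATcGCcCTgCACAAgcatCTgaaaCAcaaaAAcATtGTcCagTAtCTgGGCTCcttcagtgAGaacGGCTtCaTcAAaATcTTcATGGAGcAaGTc
Map3k6, chr4:133248014-133248133: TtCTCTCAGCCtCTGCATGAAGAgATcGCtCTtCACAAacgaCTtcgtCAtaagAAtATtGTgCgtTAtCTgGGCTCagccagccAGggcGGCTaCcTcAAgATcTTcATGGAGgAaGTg
Map3k15, chrX:160094297-160094416: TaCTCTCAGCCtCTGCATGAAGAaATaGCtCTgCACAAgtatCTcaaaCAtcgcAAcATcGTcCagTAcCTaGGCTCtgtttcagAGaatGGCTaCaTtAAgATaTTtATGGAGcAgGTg

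In these 120 bases *Map3k5* matched *Map3k15* at 94 bases (78.3%) and *Map3k6* matched it at 82 bases (68.3%). The differences are spread along the printed bases. Over all annotated exons, 0 of the 45 pairs of the 10 genes shared a stretch as long as a read (75 bases), and the longest stretch shared by any pair was 29 bases. The longest one that *Map3k15* shared was 20 bases with *Map3k5* and 21 bases with *Map3k6*. No pair of these genes therefore held an identical sequence that could take up a whole read of the other.

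Between 26807281 and 29033297 reads per library were counted on genes. Levels are given as CPM, that is, read counts brought to the same library total with edgeR's TMM factors. The targeted gene *Il4ra* had 137, 128 and 177 CPM in IL-4Rα+/+ mice 1, 2 and 3, and 27.9, 79.4 and 31.8 CPM in IL-4Rα-/- mice 1, 2 and 3. IL-4Rα-/- mouse 2 kept the most *Il4ra* reads of its group. Whether the counted reads lie in the deleted part of *Il4ra* was not tested, since the counts are per gene. All 12 monocyte markers listed were tested, with summed levels of 19719 to 24014 CPM in IL-4Rα+/+ and 21000 to 24512 CPM in IL-4Rα-/- libraries, and none of them had libraries that separated the genotypes.

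*Map3k15* was the family member with the largest log2 fold change between the genotypes. It had 2674, 1861 and 1327 reads in IL-4Rα+/+ mice 1, 2 and 3, and 996, 771 and 1048 reads in IL-4Rα-/- mice 1, 2 and 3. These are levels of 93.9, 67.3 and 50.1 CPM against 35.5, 27 and 35.4 CPM. Every IL-4Rα-/- library lay below every IL-4Rα+/+ library, and the spread was wider among the IL-4Rα+/+ mice. The mean was 70.4 ± 22.1 CPM (SD, n = 3) in IL-4Rα+/+ and 32.6 ± 4.9 CPM (SD, n = 3) in IL-4Rα-/- monocytes. The log2 fold change was -1.11, with a standard error (SE) of 0.24. Leaving out 1 mouse gave values from -1.30 to -0.85.

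*Map3k5*, which encodes ASK1, had 6186, 5125 and 4203 reads in IL-4Rα+/+ and 4611, 3584 and 5276 reads in IL-4Rα-/- mice. Its levels were 217, 185 and 159 CPM against 164, 125 and 178 CPM, and the ranges of the genotypes overlapped. The log2 fold change was -0.26 (SE 0.17), and it was -0.14 without IL-4Rα+/+ mouse 1 and -0.12 without IL-4Rα-/- mouse 2. *Map3k6*, whose product ASK2 pairs with ASK1, was the scarcest member, with 9.55, 10 and 24.7 CPM in IL-4Rα+/+ and 13.1, 34.6 and 21 CPM in IL-4Rα-/- libraries. Its ranges overlapped widely, and IL-4Rα-/- mouse 2 and IL-4Rα+/+ mouse 3 had the highest values. The log2 fold change of 0.64 (SE 0.48) depended on single mice. It was 0.21 without IL-4Rα-/- mouse 2, 1.23 without IL-4Rα+/+ mouse 3, 0.40 without IL-4Rα+/+ mouse 1 and 0.42 without IL-4Rα+/+ mouse 2.

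**Figure D1:**
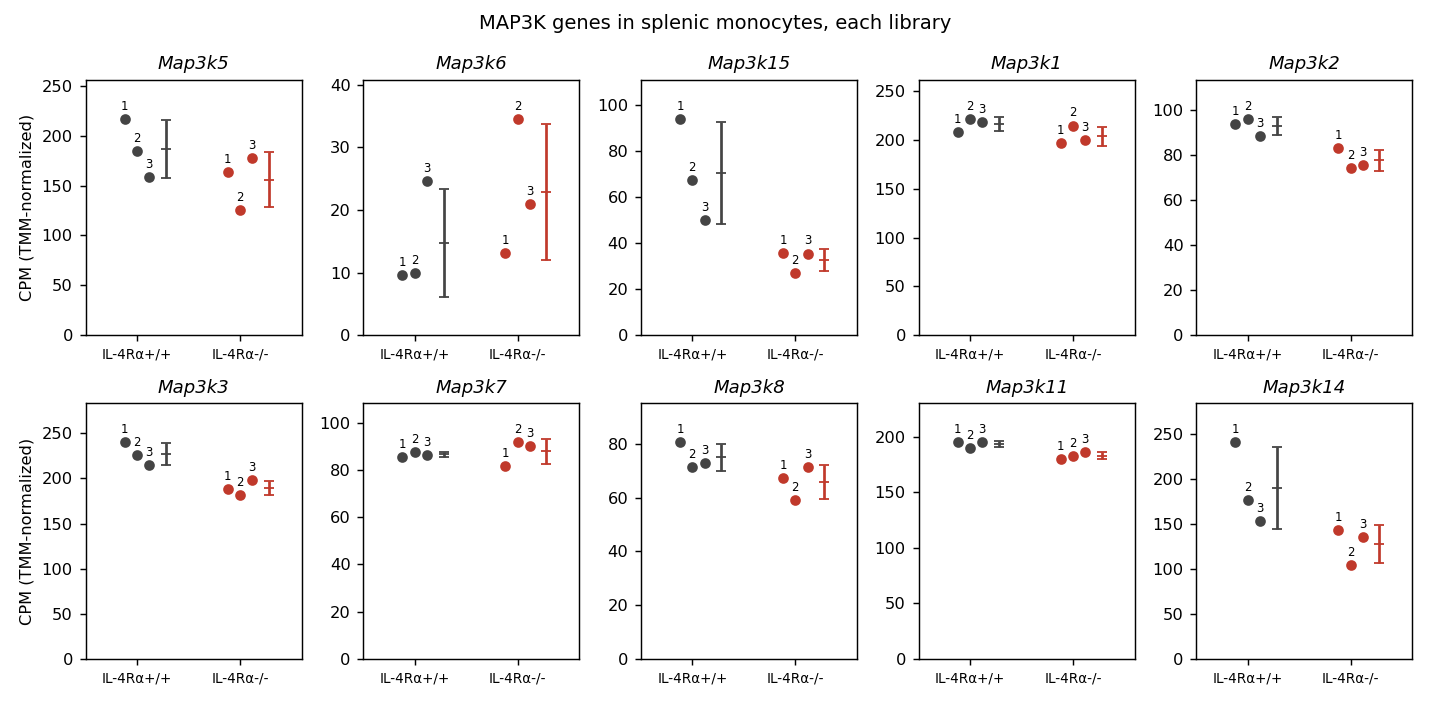
Level of each MAP3K gene in each library, in CPM scaled by TMM, with the mouse number beside each point and the mean ± SD of the 3 mice of a genotype as a bar. *Map3k15* and *Map3k14* have their highest value in IL-4Rα+/+ mouse 1 and their lowest in IL-4Rα-/- mouse 2, while the points of *Map3k7* and *Map3k1* overlap between the genotypes.

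The reads of the ASK genes were next compared within each library, which does not depend on how libraries are scaled to each other. Per kilobase of exon, *Map3k15* held 36.4, 32.2 and 26.8% of the reads of the 3 ASK genes in IL-4Rα+/+ mice, and 21.5, 18.1 and 19.4% in IL-4Rα-/- mice. The shares did not overlap, with means of 31.8 ± 4.79% (SD, n = 3) and 19.6 ± 1.72% (SD, n = 3). The difference of -12.1 percentage points ranged from -14.6 to -9.85 with 1 mouse omitted. *Map3k5* held the largest share in all 6 libraries, from 60 to 71%. *Map3k6* held between 3.49 and 21.9%, with the highest share in IL-4Rα-/- mouse 2. The level of *Map3k15* relative to *Map3k5* per kilobase was 0.605, 0.508 and 0.442 in IL-4Rα+/+ and 0.302, 0.301 and 0.278 in IL-4Rα-/- libraries, so the IL-4Rα-/- mice differed little among themselves in this ratio. The summed level of the ASK genes was 50.1 ± 8.4 RPKM (CPM per kilobase of exon, SD, n = 3) in IL-4Rα+/+ and 38.1 ± 3.83 RPKM (SD, n = 3) in IL-4Rα-/- monocytes. These sums separated only marginally, at 42.9 RPKM in IL-4Rα+/+ mouse 3 and 42 RPKM in IL-4Rα-/- mouse 3.

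**Figure D2:**
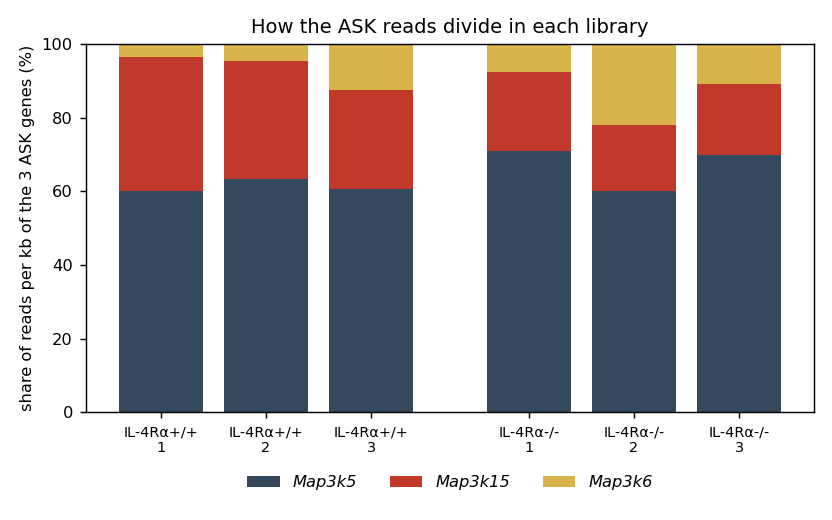
Share of the reads per kilobase of exon that *Map3k5*, *Map3k15* and *Map3k6* held in each library, in percent of the 3 genes together. The *Map3k15* segment spans 26.8 to 36.4% in the IL-4Rα+/+ and 18.1 to 21.5% in the IL-4Rα-/- libraries.

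*Map3k1*, *Map3k2* and *Map3k3* encode the kinases MEKK1, MEKK2 and MEKK3, which feed the JNK and ERK5 branches. *Map3k3* had 240, 226 and 215 CPM in IL-4Rα+/+ mice 1, 2 and 3, and 188, 182 and 198 CPM in IL-4Rα-/- mice 1, 2 and 3. *Map3k2* had 93.8, 96 and 88.4 CPM against 82.8, 74.3 and 75.6 CPM. Both genes lay lower in every IL-4Rα-/- library, each with a log2 fold change of -0.26 (SE 0.08), and mice of a genotype lay close together. *Map3k1* stood at 208, 222 and 219 CPM against 197, 215 and 200 CPM, and its ranges overlapped (log2 fold change -0.09, SE 0.07).

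*Map3k14* encodes NIK, which is kept low by TRAF3 and the cIAP ligases until a receptor such as CD40 or BAFF-R signals. It had 6859, 4887 and 4051 reads in IL-4Rα+/+ mice and 4018, 2975 and 4027 reads in IL-4Rα-/- mice, which are 241, 177 and 153 CPM against 143, 104 and 136 CPM. The groups did not overlap, although IL-4Rα+/+ mouse 3 and IL-4Rα-/- mouse 1 lay near each other. Its log2 fold change of -0.57 (SE 0.20) was the most negative after that of *Map3k15*, and it was -0.37 without IL-4Rα+/+ mouse 1. On the same strand *Map3k14* shares 135 exon bases with *1700028N14Rik*, on which 2 to 19 reads per library were counted.

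*Map3k8* encodes TPL2, which activates ERK after Toll-like receptor signals. Its levels were 80.6, 71.6 and 72.8 CPM in IL-4Rα+/+ and 67.3, 59.1 and 71.6 CPM in IL-4Rα-/- libraries. The lowest IL-4Rα+/+ and the highest IL-4Rα-/- value round to the same number, so the separation was marginal, and the log2 fold change of -0.18 (SE 0.10) was -0.11 without IL-4Rα-/- mouse 2. *Map3k11*, which encodes the mixed lineage kinase MLK3, had 195, 190 and 195 CPM against 180, 183 and 186 CPM. This is a small difference (log2 fold change -0.08, SE 0.06) between groups with very little spread. *Map3k7* encodes TAK1, the kinase that activates both IKKβ and the JNK and p38 branches. It had 85.5, 87.6 and 86.4 CPM against 81.7, 91.6 and 90 CPM, the value closest to equal in the family (log2 fold change 0.02, SE 0.07), with a sign that turned to -0.01 without IL-4Rα-/- mouse 2.

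Of the 10 members, 6 had no overlap and were lower in IL-4Rα-/- libraries, namely *Map3k2*, *Map3k3*, *Map3k8*, *Map3k11*, *Map3k14* and *Map3k15*, and 0 were higher without overlap. Of all genes tested, 7.87% were lower without overlap and 7.63% were higher without overlap. The log2 fold change was negative in 8 members and positive in 2, with a median of -0.22, beside a median of 0.01 over all genes tested. At an adjusted p-value under 0.15 (edgeR's quasi-likelihood test, Benjamini-Hochberg), 0 members passed, and 0% of all genes did, with a smallest adjusted p-value of 0.618 and 1120 genes at an unadjusted p-value under 0.05. At that unadjusted limit 4 members were lower and 0 higher, beside 4.37% of all genes that were lower. DESeq2 called 1 member, *Map3k15* (adjusted p = 0.012), and 0.571% of all genes, or 0.293% in the lower direction. Since this contrast was known when the genes were chosen, nothing is read from these counts about the family.

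**Figure D3:**
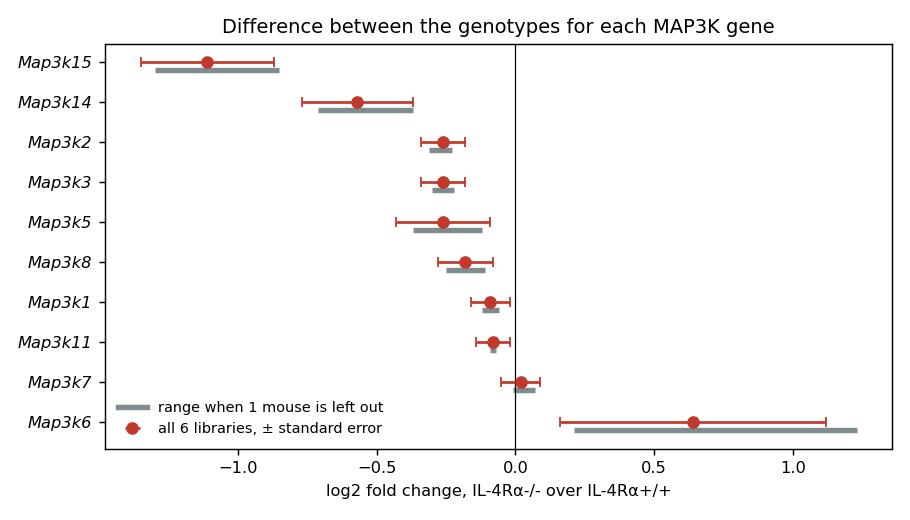
Log2 fold change of IL-4Rα-/- over IL-4Rα+/+ for each MAP3K gene (edgeR), with the standard error as a red bar and, in grey beneath it, the range when 1 mouse is left out. *Map3k15* spans -1.30 to -0.85 and *Map3k14* -0.71 to -0.37, while *Map3k6* spans 0.21 to 1.23.

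Levels of different genes were compared per kilobase of exon, as RPKM in IL-4Rα+/+ monocytes. *Map3k3* was highest at 56.4 ± 3.17 RPKM (SD, n = 3), followed by *Map3k11* at 44 ± 0.612 RPKM. *Map3k5*, *Map3k1* and *Map3k14* came next at 30.7 ± 4.82, 29 ± 1.02 and 29 ± 6.95 RPKM, and their ranges overlapped. *Map3k8*, *Map3k15* and *Map3k7* formed a further run of neighbours with overlapping ranges, at 16.7 ± 1.08, 16.2 ± 5.08 and 13.5 ± 0.162 RPKM. *Map3k2* (6.65 ± 0.28 RPKM) and *Map3k6* (3.2 ± 1.87 RPKM) were lowest and overlapped neither each other nor the genes above them. In IL-4Rα-/- monocytes *Map3k15* stood at 7.51 ± 1.13 RPKM, below *Map3k7* at 13.7 ± 0.832 RPKM and above *Map3k2* at 5.56 ± 0.327 RPKM. *Map3k15* exceeded 76.4% of all genes tested in its IL-4Rα+/+ level, *Map3k3* exceeded 93.5% and *Map3k6* 41%. With the longest transcript as the gene length, the IL-4Rα+/+ levels of *Map3k14* and *Map3k8* became 44.8 and 29.2 RPKM, so the middle of this order depends on the length used.

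**Figure D4:**
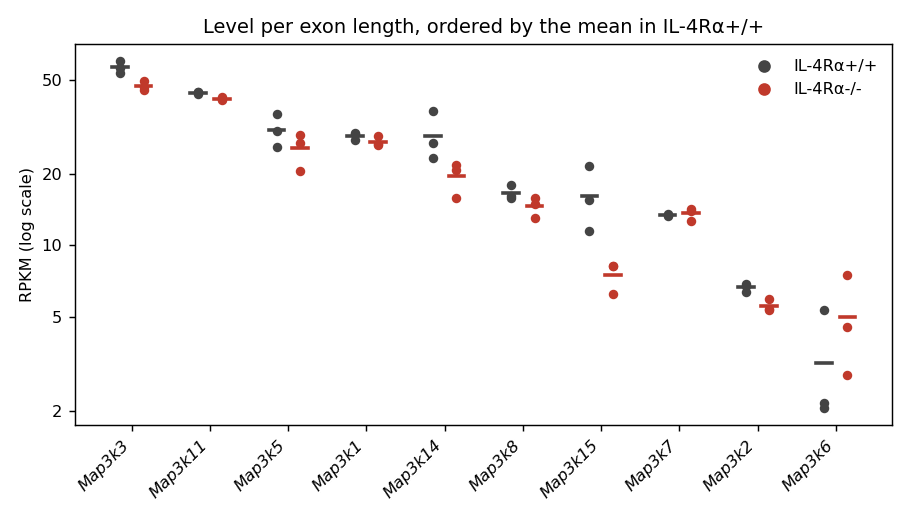
Level per kilobase of exon (RPKM, log axis) of each MAP3K gene in the 3 mice of each genotype, with horizontal bars at the means and genes ordered by the IL-4Rα+/+ mean. *Map3k3* is highest at 56.4 RPKM and *Map3k6* lowest at 3.2 RPKM, and *Map3k15* has the widest gap between the genotypes.

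The libraries in which *Map3k15* was high were also high in several other members. On the log2 scale *Map3k15* lay 1.00, 0.52 and 0.09 above its 6-library mean in IL-4Rα+/+ mice 1, 2 and 3, and at -0.40, -0.80 and -0.41 in IL-4Rα-/- mice 1, 2 and 3. *Map3k14* deviated by 0.65, 0.20 and -0.01, then by -0.10, -0.56 and -0.18. *Map3k6* went the other way, at -0.81, -0.75 and 0.56, then at -0.36, 1.04 and 0.32. As a description over these 6 libraries, which share their genotype groups, Pearson's r with *Map3k15* was 0.983 for *Map3k3*, 0.969 for *Map3k14*, 0.847 for *Map3k5*, -0.323 for *Map3k7* and -0.78 for *Map3k6*. After the genotype means were taken out, r was 0.927 for *Map3k3*, 0.972 for *Map3k14* and 0.912 for *Map3k5*. It was 0.752 for *Map3k8*, 0.584 for *Map3k2*, 0.0476 for *Map3k11*, -0.354 for *Map3k7*, -0.767 for *Map3k1* and -0.842 for *Map3k6*. On this measure an r of 0.961 ranked only 387 among the other genes tested, so high values were held by many genes.

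Among all genes tested, the 5 most like *Map3k15* in log2 CPM over the 6 libraries were *Usp42* (r = 0.996), *Bicra* (r = 0.992), *Supt6* (r = 0.991), *Mbd1* (r = 0.99) and *Aqr* (r = 0.99). Their own differences between the genotypes were much smaller, with log2 fold changes of -0.14, -0.27, -0.14, -0.20 and -0.18. In all, 414 genes (2.99%) had an r over 0.9, so a close match over 6 libraries was common. After the genotype means were taken out, r was still 0.961 to 0.994 for the 5 genes. Spearman's rho was 1 for *Aqr* and 0.943 for the other 4, and with 6 libraries many genes tie in rho.

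**Figure D5:**
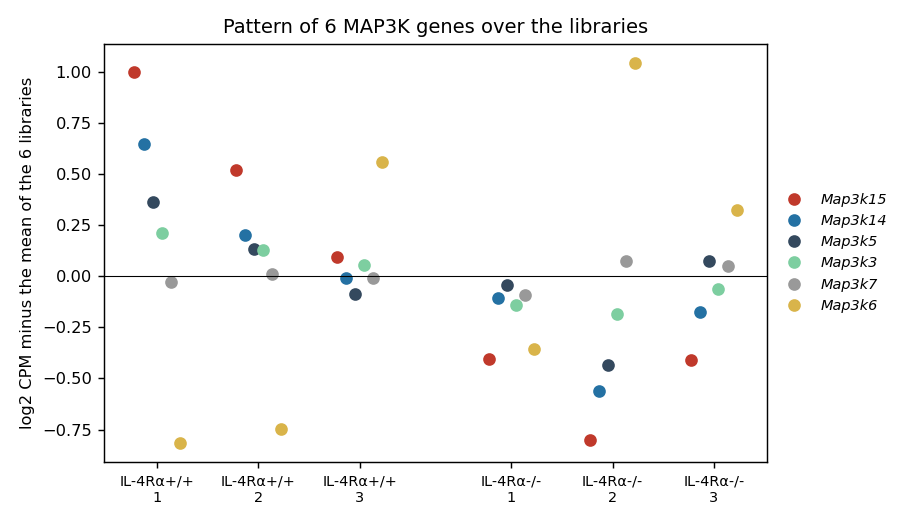
Log2 CPM of 6 MAP3K genes in each library, minus the mean of the gene over the 6 libraries. *Map3k15* (1.00), *Map3k14* (0.65) and *Map3k5* (0.36) are highest in IL-4Rα+/+ mouse 1 and lowest in IL-4Rα-/- mouse 2 (-0.80, -0.56 and -0.44), where *Map3k6* is highest (1.04).

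*Map3k15* shares 603 exon bases with *Pdha1*, which encodes a subunit of pyruvate dehydrogenase and lies on the opposite strand. *Pdha1* had 213, 186 and 168 CPM in IL-4Rα+/+ and 169, 165 and 154 CPM in IL-4Rα-/- libraries, and its ranges overlapped (log2 fold change -0.22, SE 0.10). Over the 6 libraries its r with *Map3k15* was 0.883, and 0.777 after the genotype means were taken out. The part of this overlap in the *Map3k15* count was not tested. Of 386 genes whose exons all lie inside those of a gene on the other strand, 143 had at least 1 read, which counting without strand could not give. Within 500000 bp of *Map3k15*, 17 other genes are annotated, of which 11 had a read and 4 were tested. Besides *Pdha1* these were *Sh3kbp1* (log2 fold change -0.11, SE 0.07), *Phka2* (-0.26, SE 0.16) and *Bclaf3* (-0.17, SE 0.14), and none of the 4 had libraries that separated the genotypes. Of the 414 genes tested on chromosome X, 32 were lower and 30 higher without overlap, beside 1058 and 1026 of the 13435 genes tested on other chromosomes. The median log2 fold change on chromosome X was -0.00.

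Sex is not labelled, and *Xist*, the RNA made from the inactive X chromosome, differed between mice of the same genotype. It had 15739, 103 and 1 reads in IL-4Rα+/+ and 1, 4 and 13512 reads in IL-4Rα-/- mice. *Map3k15* had 93.9 CPM in the IL-4Rα+/+ mouse and 35.4 CPM in the IL-4Rα-/- mouse with high *Xist*. In the other 4 mice it had 67.3 and 50.1 CPM against 35.5 and 27 CPM. These sets hold 1 mouse against 1 and 2 mice against 2. With log2 CPM of *Xist* as a covariate, its log2 fold change was -1.01 (SE 0.18). The part of sex in the *Map3k15* values was not tested.

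Markers of other cells moved with the genotype as well. The summed level of 9 erythroid markers was 57.7 to 128 CPM in IL-4Rα+/+ and 168 to 422 CPM in IL-4Rα-/- libraries. Of these, 9 of 9 genes were higher on average and 8 were higher without overlap. For 8 red pulp macrophage markers the sum was 2723 to 3140 CPM against 3486 to 5287 CPM, with 8 of 8 higher on average and 4 without overlap. Of 10 eosinophil, basophil and mast cell markers, 6 were higher without overlap, while their sums overlapped (123 to 245 CPM against 116 to 244 CPM). Of all genes tested, 7.63% were higher without overlap. The sums of the B and plasma cell, T and NK cell, dendritic cell, neutrophil, platelet and pancreatic acinar markers overlapped between the genotypes. Several of these lists still leaned higher in IL-4Rα-/- libraries. Higher and lower on average were 9 and 0 acinar, 7 and 1 neutrophil, 3 and 0 platelet, and 6 and 2 B and plasma cell markers. For T and NK cells they were 4 and 5, and for dendritic cells 2 and 5. Of the 12 monocyte markers, 4 were higher and 8 lower on average. The acinar sum was 348 CPM in IL-4Rα-/- mouse 2, the library with the lowest *Map3k15* and the highest *Map3k6* level, and at most 52 CPM in the others. Those 52 CPM were in IL-4Rα+/+ mouse 1, which had the highest *Map3k15* and the lowest *Map3k6* level. The lowest acinar sum, 10.4 CPM, was in IL-4Rα+/+ mouse 3, which had the next highest *Map3k6* level. *Gp9*, *Gp1bb* and *Amy2a5* had 3 reads or fewer in all libraries. The part of these cells in the MAP3K values was not tested.

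The other genes of the cascade were described from lists in the same fit. In 8 lists, 98 of 108 genes were tested. Of these, 57 had a negative and 41 a positive log2 fold change, with a median of -0.03. Of all genes tested, 6719 had a negative and 7130 a positive value, with a median of 0.01. The lists were chosen with earlier results of these data known, so nothing is read from the direction counts of any list. Without overlap, 10 of the 98 were lower and 5 higher, beside 7.87% and 7.63% of all genes, which is no result about these lists. In edgeR's test 0 of the 98 passed, with 9 at an unadjusted p-value under 0.05. Of all 13849 genes tested, 0 passed and 1120 were under this unadjusted limit, so the 9 are no result about these lists. DESeq2 called 1, *Ern1*, beside 0.571% of all genes.

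Among the other MAP3K genes, 12 of 15 were tested and 10 of these had a negative log2 fold change (median -0.10). *Taok3* and *Taok2*, which encode TAO kinases, stood at 21.1 ± 0.8 and 16.6 ± 0.861 RPKM (SD, n = 3) in IL-4Rα+/+ monocytes. *Taok1*, whose product acts on p38, had 159, 174 and 135 CPM in IL-4Rα+/+ and 128, 117 and 126 CPM in IL-4Rα-/- mice. *Map3k9* (MLK1) had 5.9, 8.71 and 5.96 CPM against 5.28, 4.55 and 5.37 CPM. Like *Taok3*, both were lower in every IL-4Rα-/- library. *Map3k13* was counted at 1 to 5 reads per library and *Map3k21* and *Mos* at 0, so they were not tested.

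The MAP2K and MAP kinase genes act below the MAP3K level. Of 7 MAP2K genes, 5 had a positive log2 fold change (median 0.06), and *Map2k2*, which activates ERK, was higher without overlap at 0.12 (SE 0.07). *Map2k3*, which activates p38, had a log2 fold change of 0.22 (SE 0.17) with overlap. Of 11 MAP kinase genes, 6 were negative and 5 positive, from -0.17 to 0.50. *Mapk11* (p38β) had 3.79, 3.98 and 3.43 CPM in IL-4Rα+/+ and 5.03, 4.2 and 6.66 CPM in IL-4Rα-/- mice, without overlap. *Mapk3* (ERK1) had a log2 fold change of 0.17 (SE 0.10) with overlap.

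Of 22 regulators and partners of the ASK kinases, 17 had a positive and 5 a negative log2 fold change (median 0.09). *Ern1*, the endoplasmic reticulum stress sensor that recruits TRAF2 and ASK1, had 188, 216 and 177 CPM in IL-4Rα+/+ and 108, 142 and 100 CPM in IL-4Rα-/- mice. *Prdx1*, a peroxidase that removes hydrogen peroxide, had 266, 239 and 293 CPM against 346, 369 and 320 CPM. Neither gene's groups overlapped, with log2 fold changes of -0.73 (SE 0.15) for *Ern1* and 0.37 (SE 0.10) for *Prdx1*.

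Of 14 partners of TAK1, TPL2 and NIK, 13 had a negative log2 fold change (median -0.17). *Chuk*, which encodes the IKKα that NIK activates, had a value of -0.25 (SE 0.10) without overlap, and *Tab2*, which tethers TAK1 to ubiquitin chains, had -0.26 (SE 0.10) with overlap. Of 11 MAP4K and JNK scaffold genes tested, 10 were negative (median -0.21). The scaffold *Mapk8ip3* had a log2 fold change of -0.24 (SE 0.07) without overlap, and *Spag9* had -0.31 (SE 0.12) with overlap.

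The remaining lists hold MAP kinase phosphatases and targets. Of 8 phosphatases tested, 4 were negative and 4 positive. *Dusp16*, which acts on JNK and p38, had 444, 181 and 102 CPM in IL-4Rα+/+ and 207, 109 and 167 CPM in IL-4Rα-/- mice, so its groups overlapped and IL-4Rα+/+ mouse 1, the mouse with the highest *Map3k15* level, stood far above the others. *Dusp2* had a log2 fold change of -0.26 (SE 0.24) with overlap. Of 13 targets, 7 were negative and 6 positive (median -0.00). *Mapkapk5*, a kinase downstream of p38, had 4.32, 4.3 and 3.66 CPM against 3.03, 2.27 and 2.64 CPM, without overlap, while *Atf2*, a transcription factor that JNK and p38 phosphorylate, overlapped (log2 fold change -0.14, SE 0.08).

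The promoters of 7 members, *Map3k1*, *Map3k3*, *Map3k5*, *Map3k6*, *Map3k7*, *Map3k11* and *Map3k14*, were in the RefSeq table for GRCm38.p6, each as 300 bases around the start of transcription. The others are *Map3k2*, *Map3k8* and *Map3k15*. The letters TTC and GAA with any 4 bases between them, the form STAT6 prefers, were in 0 of the 7 and in 6.95% of all 32851 promoters. With any 3 bases between them, the form of other STAT factors, they were in 0 of the 7 and in 8.3% of all. Both motifs read the same on either strand, and neither can contain the other at the same place.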

How the data were processed

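The authors aligned single-end reads of 75 bases to GRCm38 with STAR 2.6.1a, using the GENCODE annotation, and deposited raw read counts per gene for each of the 6 libraries. The strand setting of the counts is not given in the sources used here. Multimapping (8.3 to 9.35% of reads), unassigned (8.87 to 11.7%), ambiguous (1.39 to 1.52%) and unmapped reads (1.32 to 1.66%) stayed out of every test. Names and positions came from a nearby GENCODE release, in which 55240 of the 55421 identifiers were found.

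Genes were filtered by filterByExpr with a minimum count of 10, scaled by TMM and tested by quasi-likelihood in edgeR 4.0.16 (R 4.3.3). P-values were adjusted by Benjamini-Hochberg, at the study's threshold of 0.15. DESeq2 1.42.0 was an alternative. CPM and RPKM used TMM factors, and RPKM the union of exons. Correlations used log2 CPM with a prior count of 2. Samples were grouped by genotype as labelled, and p-values set the difference between the genotypes against the spread between mice. The members, the lists and the named genes (of each list, those called and the 2 with the smallest unadjusted p-value) were chosen with earlier results of these data known. One gene that this rule names is not reported here. The fits were tested on simulated data with planted changes larger than those of the members. Such a run does not show how well smaller changes are found. The deviations of same-numbered libraries had correlations of 0.185, -0.271 and -0.296, which gave no sign that the numbers pair them. With 3 libraries per genotype these correlations cannot exclude a pairing.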

Additional observations from a re-analysis of the deposited data

How the results depend on the processing

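With DESeq2 in place of edgeR, 80 genes were called (41 lower and 39 higher in IL-4Rα-/-) in place of 0, with 1 member (*Map3k15*) and 1 other gene of the cascade lists (*Ern1*). The cause of this gap between the tools was not tested. With DESeq2's size factors, either other filter, the *Xist* covariate, the length trend removed or 1 mouse left out (0 to 0), edgeR's counts of called genes stayed at 0 for all genes, for the lists and for the members. The same was found with the replicate number as a block (smallest adjusted p-value 0.812, 765 genes at an unadjusted p-value under 0.05). Whether the numbers pair the libraries is not known. *Map3k15* had a log2 fold change of -1.07 with the block.

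Of 130 alternative log2 fold changes of the members, 128 moved by no more than the spread between mice. The others were *Map3k2* (-0.16) and *Map3k11* (-0.11) with the length trend removed. With 3 mice per genotype, leaving out 1 mouse can hardly shift a mean by more than this spread. The alternatives with 1 mouse left out therefore say little about stability in this count. *Map3k6* was counted as within the spread (SD 0.73) although its value ran from 0.21 to 1.23. The difference in the *Map3k15* share of the ASK reads was -14.6 to -9.85 points with 1 mouse left out and -11.5 points with the longest transcripts. Between 6 and 7 members lay lower without overlap when 1 mouse was left out, an alternative chosen after seeing the data, in which the count could not fall and which therefore says nothing about stability. Likewise, a threshold of 0.05 could only give 0 genes. Of the 5 genes most like *Map3k15*, 1 ranked in the first 5 by Spearman's rho, where the other 4 tied at rank 76 (rho 0.943), and 0 did after the genotype means were taken out, although r was then still 0.961 to 0.994.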
